A study of Mus musculus with 2 samples.

Results

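Gluconeogenesis makes glucose from lactate, glutamine and glycerol, and the proximal tubule is the part of the kidney known for it. Described here are 7 genes of that route, taken by symbol: Pck1, G6pc, Fbp1, Pcx, Slc37a4, Got1 and Mdh1. Each matched 1 of the 31058 features in the count tables. The cells came from whole kidneys of female C57Bl/6 mice, 9 weeks old, after rhabdomyolysis, the breakdown of skeletal muscle whose released myoglobin injures tubules. Of the 2 droplet single-cell libraries, 1 came from mice given CA3, which is known to inhibit YAP1, a coactivator of the Hippo pathway, and 1 from mice given vehicle. Both groups had the injury and the same 3 alleles, Pax8.rtTA, TetO.Cre and R26.FUCCI2aR, by which the Pax8 promoter can drive Cre and a cell cycle reporter in tubule cells. By its design text the series addressed acute kidney injury and the chronic disease that can follow. The sources used here do not give the CA3 dose, the time after injury or how many animals went into a library, and no uninjured kidney was analysed here.

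The route begins in mitochondria, where pyruvate carboxylase, encoded by Pcx, turns pyruvate into oxaloacetate. Oxaloacetate reaches the cytosol as malate or aspartate, and the enzymes encoded by Mdh1 and Got1 restore it there. Pck1 encodes the cytosolic carboxykinase that commits oxaloacetate to the route, and Fbp1 encodes the bisphosphatase that opposes phosphofructokinase. The last step lies in the endoplasmic reticulum, where Slc37a4 encodes the carrier that brings glucose 6-phosphate in and G6pc the catalytic subunit that frees glucose. Got1 and Mdh1 also serve the malate-aspartate shuttle, which most cells use.

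The bases just upstream of the RefSeq starts of 4 of the genes are shown. Pck1 and G6pc were chosen because they stood higher together in the CA3 library and in Fosb-positive cells. Fbp1 and Mdh1 were chosen because they followed each other across proximal tubule clusters. Each line gives the 250 bases before the RefSeq start on GRCm38.p6, 5′ to 3′ on the gene's own strand, with the searched motifs in capitals.
Pck1: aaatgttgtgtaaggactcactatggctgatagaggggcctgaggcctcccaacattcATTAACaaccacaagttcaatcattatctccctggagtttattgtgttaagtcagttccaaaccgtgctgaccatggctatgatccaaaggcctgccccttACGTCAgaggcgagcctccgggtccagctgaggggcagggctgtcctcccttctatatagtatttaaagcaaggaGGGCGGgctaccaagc
G6pc: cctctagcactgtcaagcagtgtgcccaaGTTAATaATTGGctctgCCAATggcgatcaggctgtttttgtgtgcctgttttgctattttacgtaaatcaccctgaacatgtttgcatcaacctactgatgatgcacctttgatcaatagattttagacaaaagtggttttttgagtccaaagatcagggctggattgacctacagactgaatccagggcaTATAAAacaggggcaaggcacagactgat
Fbp1: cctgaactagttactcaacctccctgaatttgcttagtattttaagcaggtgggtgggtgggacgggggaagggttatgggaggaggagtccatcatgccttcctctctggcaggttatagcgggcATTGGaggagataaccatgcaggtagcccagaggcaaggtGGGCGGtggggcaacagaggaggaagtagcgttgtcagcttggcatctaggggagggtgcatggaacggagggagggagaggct
Mdh1: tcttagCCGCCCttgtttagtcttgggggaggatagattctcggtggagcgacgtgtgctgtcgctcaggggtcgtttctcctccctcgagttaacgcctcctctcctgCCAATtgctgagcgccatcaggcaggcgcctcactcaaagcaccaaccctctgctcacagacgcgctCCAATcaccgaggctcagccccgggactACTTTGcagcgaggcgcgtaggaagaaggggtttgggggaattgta

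The windows are chr2:173152823-173153072 on the plus strand for Pck1, chr11:101367466-101367715 on the plus strand for G6pc, chr13:62888283-62888532 on the minus strand for Fbp1 and chr11:21571935-21572184 on the minus strand for Mdh1. GENCODE vM21 places the starts of Pck1 and G6pc inside these windows. It places the Mdh1 start at 21572367, so the whole Mdh1 window lies downstream of that start, inside the gene. Starts named below are those of RefSeq. The motifs were searched on both strands in the same window of 32851 mouse promoters. The core of the cAMP response element, ACGTCA, lies 91 bases before the Pck1 start and occurs in 6.47% of promoters. It is absent from the G6pc window. On the other strand it lies before Slc37a4, 61 bases from its first start and 214 bases from its second. Slc37a4 had a CA3 over vehicle ratio of 0.998 in proximal tubule cells. The core of the HNF1 motif, GTTAAT, lies 192 bases before the Pck1 start, on the other strand, and 221 bases before the G6pc start, and occurs in 6.43%. The TATA box TATAAA lies 29 bases before the G6pc start and occurs in 12.4%. The CCAAT box, CCAAT, found before G6pc, Fbp1 and Mdh1, occurs in 33.8%, and the GC box GGGCGG, found before Pck1, Fbp1 and Mdh1, in 32.7%. The core of the HNF4 motif, CAAAGT, lies 46 bases before the Mdh1 start on the other strand and occurs in 12.6%. The Mdh1 window holds 17 CpG dinucleotides, the Pck1 and Fbp1 windows 5 each and the G6pc window 2, against a median of 6 over all promoters. These matches describe letters only. Got1 and Pcx lie on chromosome 19 and Slc37a4 on chromosome 9, and their promoters are not shown.

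Library totals were 17013222 UMIs (unique molecular identifiers, 1 per captured transcript) over 1724 barcodes for CA3 and 19592239 UMIs over 1967 barcodes for vehicle. The filters kept 1494 CA3 cells and 1767 vehicle cells, and the libraries shared 1 barcode. Clustering without the 7 genes and without the other pathway genes gave 21 clusters, 11 of them proximal tubule. With 1 library per group no test between groups was possible, and treatment cannot be told apart from animal and library. Levels are UMIs of a gene summed over the cells of a class per 1000000 UMIs, with mitochondrially encoded genes left out of the total (CPM), and ratios carry exact 95% intervals that cover counting error only. Yap1, whose product CA3 inhibits, had 291 UMIs in the CA3 library and 438 in the vehicle library, but the level of its mRNA is no check of the label.

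The proximal tubule class held 1165 CA3 cells and 1437 vehicle cells, and its 12 markers summed to 28697 CPM for CA3 and 29495 CPM for vehicle. Early cells were the clusters in which Slc5a2 and Slc5a12, the sodium-glucose and sodium-lactate carriers of the first segment, were both at least 50% of their highest cluster. Late cells were those with Slc5a2 under 10% of its highest cluster, and the rest were middle. This gave 210 early, 576 middle and 379 late cells in the CA3 library, and 268, 675 and 494 in the vehicle library. Slc5a2 stood at 48.1 CPM in late and 1154 CPM in early CA3 cells, and at 45.7 CPM in late and 987 CPM in early vehicle cells. Slc5a12 stood at 104 CPM in late and 1144 CPM in early CA3 cells, and at 137 and 1450 CPM in the same vehicle cells. It was lower late but not absent: the late clusters 7 and 12 had 157 and 171 CPM for CA3 and 239 and 222 CPM for vehicle, and in the vehicle library the middle clusters 0 and 9 had 202 and 219 CPM. Markers of the third segment were concentrated in cluster 10, which had 11 CA3 cells and 33 vehicle cells. Its Slc7a12, an amino acid carrier of that segment, stood at 2511 CPM for CA3 and 2462 CPM for vehicle, against 85.8 and 182 CPM in late cells as a whole.

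Along the tubule the 7 genes took different courses. Pck1, Fbp1 and Mdh1 were higher in late than in early cells in both libraries, while G6pc and Slc37a4 were lower. In both libraries 3 of the 7 genes were at least 25% higher late, against 22.1% of the 10093 genes measured, and 2 were at least 20% lower, which is the same fold, against 33%.

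**Figure D1:**
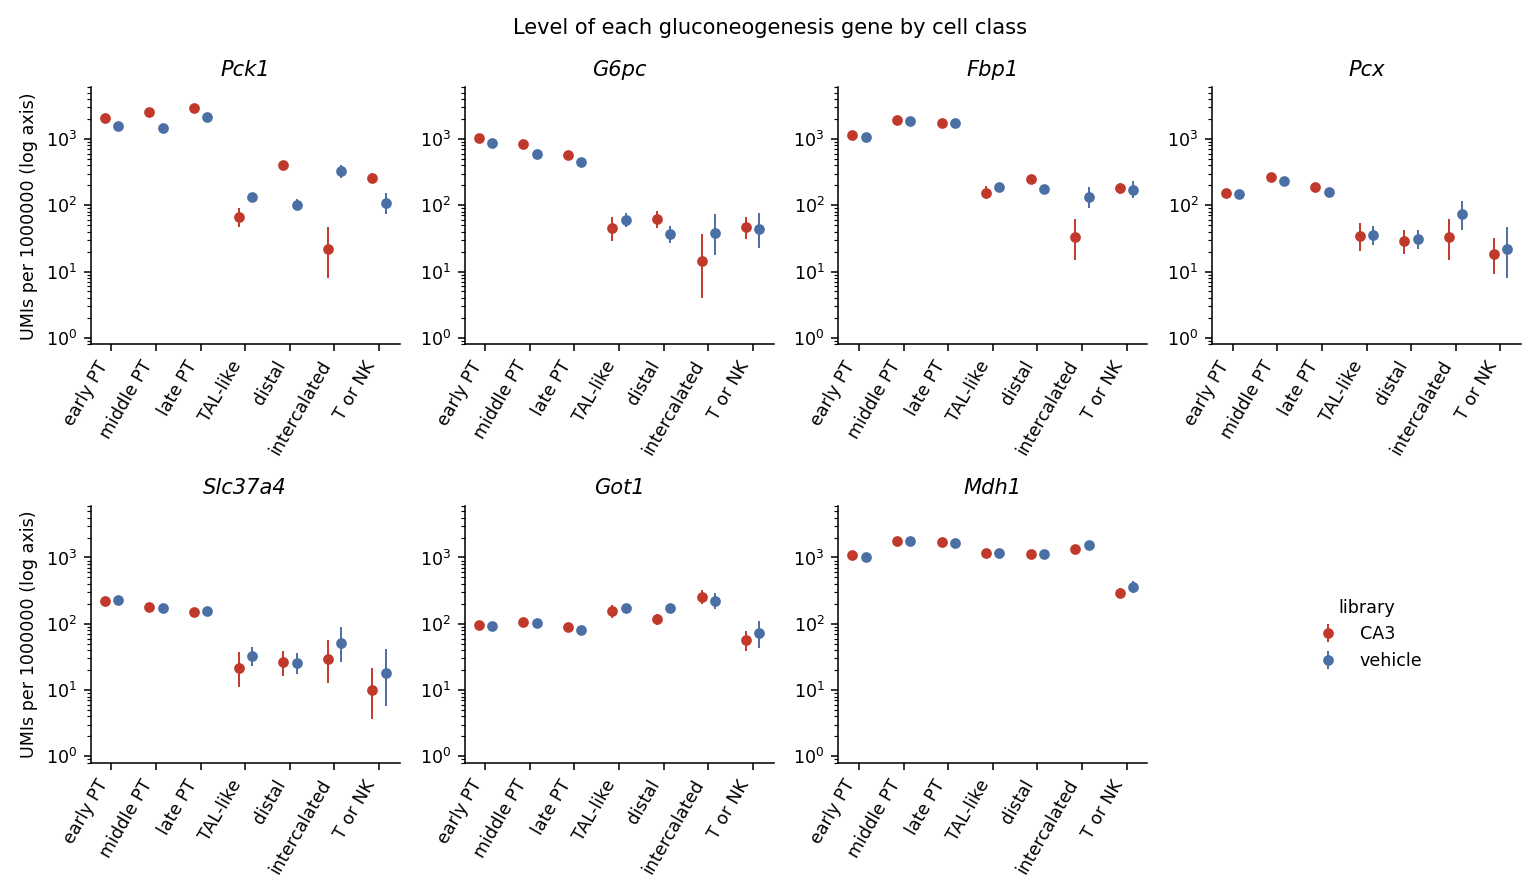
Level of each gene (CPM, log axis) in 7 cell classes, CA3 in red to the left and vehicle in blue, with exact 95% counting intervals. Pck1, G6pc and Fbp1 drop by about an order of magnitude outside the proximal tubule, whereas Got1 and Mdh1 do not.

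Pcx, at the entry of the route, had 191 CPM in late and 153 CPM in early CA3 cells, and 158 CPM in late and 148 CPM in early vehicle cells. The interval of late over early was 1.10 to 1.43 for CA3 and 0.94 to 1.21 for vehicle, which spanned 1. Its highest level lay between the ends, in middle cells, at 271 CPM for CA3 and 234 CPM for vehicle. Fbp1, Mdh1 and Got1 were likewise highest in middle cells among the 3 proximal tubule segments.

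Pck1 averaged over late cells 2873 CPM for CA3 and 2168 CPM for vehicle, and over early cells 2093 and 1566 CPM. The late over early ratio was 1.37 (1.33 to 1.42) for CA3 and 1.38 (1.33 to 1.44) for vehicle. The excess of late cells lay above all in cluster 7, the cluster of highest Pck1 in both libraries, with 3855 CPM for CA3 and 3093 CPM for vehicle. Cluster 10, the one with third-segment markers, had only 1119 CPM for CA3 and 705 CPM for vehicle, which is 0.53 and 0.45 times the early level. So the cells of highest and the cells of lowest Pck1 both counted as late. Without any cell filter, late over early was 0.91 for CA3 and 0.99 for vehicle, and at a coarser clustering 0.93 for CA3. Without the cells that held a Fosb UMI, described further on, it was 1.11 for CA3 and 1.08 for vehicle, so Pck1 was no longer 25% higher late.

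Single cells spread widely around these averages. In late cells of the CA3 library the 10th percentile of Pck1 was 379 CPM, the median 1999 and the 90th percentile 6184, and in those of the vehicle library 195, 1373 and 4467. No Pck1 UMI was counted in 2.90% of late CA3 cells and 6.68% of late vehicle cells. In late cells each of these percentiles was thus higher in the CA3 library. Early cells differed at the low end: the 10th percentile was 165 CPM for CA3 and 267 CPM for vehicle, the median 1709 and 1268 CPM, and 7.14% of CA3 and 2.99% of vehicle cells had no Pck1 UMI. The 3 cells with most Pck1 held 2.38% of its proximal tubule UMIs for CA3 and 1.95% for vehicle.

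Fbp1 had 1712 CPM in late and 1149 CPM in early CA3 cells, and 1707 CPM in late and 1059 CPM in early vehicle cells. Mdh1 had 1709 CPM in late and 1088 CPM in early CA3 cells, and 1656 CPM in late and 1000 CPM in early vehicle cells. Their late over early ratios were 1.49 and 1.57 in the CA3 library and 1.61 and 1.66 in the vehicle library. Got1, the partner of Mdh1 in moving oxaloacetate, showed no such excess: its ratios of 0.93 and 0.89 had intervals that spanned 1.

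For the last step of the route the order was the opposite. G6pc stood at 573 CPM in late, 833 in middle and 1047 CPM in early CA3 cells, and at 446, 591 and 877 CPM in the same vehicle cells. Late over early was 0.55 (0.51 to 0.58) for CA3 and 0.51 (0.48 to 0.54) for vehicle. Without Fosb-positive cells it was 0.28 for CA3 and 0.36 for vehicle. Slc37a4 had 149 CPM in late and 218 CPM in early CA3 cells, and 155 CPM in late and 231 CPM in early vehicle cells, a ratio of 0.68 and 0.67. Both genes of the endoplasmic reticulum step thus stepped down from early through middle to late in both libraries. G6pc was lowest in cluster 10 for CA3, at 131 CPM, and in cluster 12 for vehicle, at 137 CPM.

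**Figure D2:**
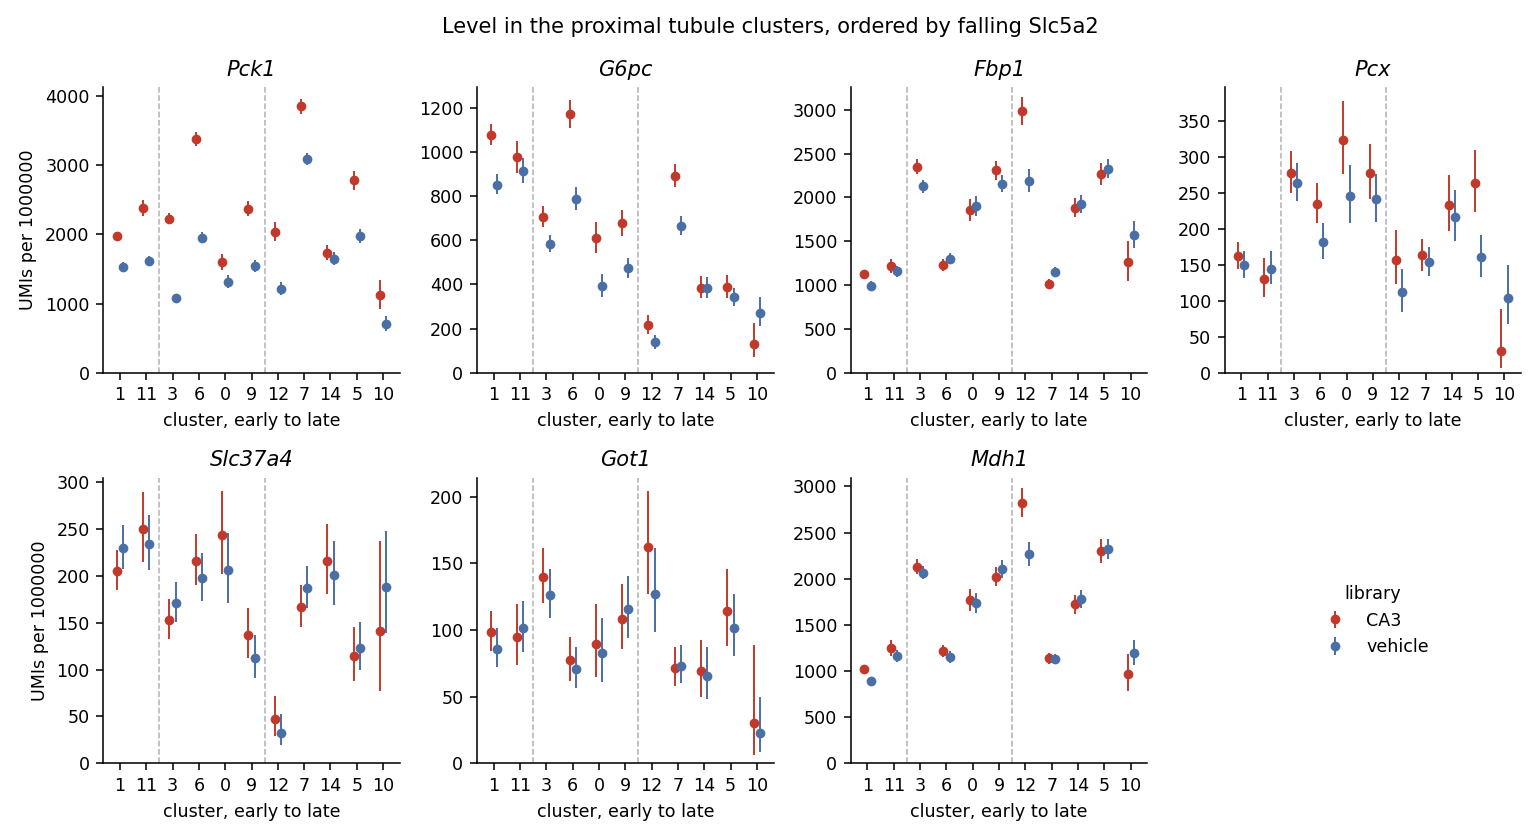
Level of each gene (CPM, linear axis from 0) in the 11 proximal tubule clusters, ordered from high to low Slc5a2, CA3 in red and vehicle in blue with exact 95% counting intervals; dashed lines part early, middle and late. Fbp1 and Mdh1 share a pattern across clusters that runs against that of G6pc, and Pck1 is above vehicle in the CA3 library in every cluster, in cluster 10 through 3 cells.

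Within these segments the clusters differed in more than position. Clusters 1, 6, 7 and 11 had median depths of 10447 to 14986 UMIs and 11.2% to 15.2% mitochondrial UMIs, and clusters 0, 3, 5, 9 and 14 had 5551 to 6116 UMIs and 19.8% to 30.1%. Fbp1 ranged from 1008 to 1229 CPM over the 4 deep clusters and from 1854 to 2352 CPM over the 5 shallow ones in the CA3 library, and from 994 to 1300 and from 1898 to 2328 CPM in the vehicle library. Mdh1 did the same, at 1021 to 1248 against 1722 to 2298 CPM for CA3 and 890 to 1165 against 1736 to 2320 CPM for vehicle. G6pc ran the other way, at 892 to 1170 CPM in deep and 384 to 705 CPM in shallow clusters for CA3, and 666 to 915 and 341 to 585 CPM for vehicle. None of these ranges overlapped between the named deep and shallow clusters, and how many of all genes do the same was not counted. Clusters 10 and 12, at median depths of 6700 and 6801 UMIs, were left out. Cluster 10 had Mdh1 at 968 CPM for CA3, below the deep range, so with it the CA3 ranges of Mdh1 would overlap. Pck1, Pcx, Slc37a4 and Got1 overlapped in both libraries.

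Both early clusters were deep, while late cells held deep and shallow clusters, so depth and mitochondrial share moved with segment. Among deep clusters alone, late over early was 0.88 for CA3 and 1.09 for vehicle in Fbp1, 1.05 and 1.13 in Mdh1, 0.85 and 0.76 in G6pc, 0.77 and 0.81 in Slc37a4, and 1.84 and 1.98 in Pck1. Pcx was at 1.07 and 1.04. Got1 was at 0.74 (0.57 to 0.94) and 0.80 (0.63 to 1.0), and was the only one of the 7 genes at least 20% lower late in both libraries there. That comparison rests on cluster 7 as the only deep late cluster. A Fosb UMI was found in 98.1% of the CA3 and 98.4% of the vehicle cells of cluster 7, against 41.9% and 47.4% of early cells. Fosb-positive cells thus moved with segment there. In that comparison the ratios of Fbp1 and Mdh1 were nearer to 1, that of G6pc was nearer to 1 as well, and that of Pck1 was farther from 1. With Slc5a2 and Slc5a12 read in each cell in place of clusters, G6pc was 0.63 and 0.59, and Fbp1 1.05 and 1.18. The part of depth, mitochondrial share and Fosb-positive cells in the segment differences was not tested further.

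Across the 10 proximal tubule clusters of at least 50 cells, Fbp1 and Mdh1 had a Pearson r of 0.99 on log levels, and G6pc and Slc37a4 one of 0.82. G6pc had r of -0.81 with Fbp1 and -0.83 with Mdh1. These are descriptions over clusters that share 2 libraries. Cluster 12, with 2.86% mitochondrial UMIs, showed the split as well. Its Slc37a4 was the lowest of all proximal tubule clusters, at 47.3 CPM for CA3 and 32.8 CPM for vehicle, and its Got1 the highest for both, at 162 and 127 CPM. Fbp1 and Mdh1 also had their highest CA3 levels there, at 2982 and 2822 CPM, but their highest vehicle levels in cluster 5, at 2328 and 2320 CPM. In cluster 12 G6pc stood at 214 and 137 CPM, and Pck1, which also encodes a cytosolic enzyme, at 2043 and 1216 CPM, CA3 before vehicle. The products of Slc37a4 and G6pc sit in the endoplasmic reticulum membrane and those of Fbp1, Mdh1 and Got1 in the cytosol. The part of this in the split was not tested. Without cluster 12 the late over early ratio of Slc37a4 was 0.76 in both libraries.

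Set against vehicle, the CA3 library had higher Pck1 and G6pc in proximal tubule cells and nearly equal levels of the other 5 genes. In all proximal tubule cells 2 of the 7 genes were at least 25% higher, against 10.3% of the 11762 genes measured, and none was 20% lower, against 8.69%. None reached 1.5 times in either direction, which 3.54% of genes did upward and 4.01% downward. Among the 322 genes of at least 500 CPM, the group to which Pck1 and G6pc belong by level, 4.66% were as much higher. The median log2 ratio was 0.10 over the 7 genes and 0.01 over all genes measured.

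Pck1 stood at 2531 CPM in CA3 and 1737 CPM in vehicle proximal tubule cells, a ratio of 1.46 (1.43 to 1.49). By segment the CA3 and vehicle levels were 2093 and 1566 CPM in early cells, 2539 and 1461 CPM in middle cells, and 2873 and 2168 CPM in late cells. The ratio was thus widest in middle cells, at 1.74 (1.68 to 1.80), against 1.34 in early and 1.33 in late cells. Pck1 was higher in the CA3 library in 11 of 11 proximal tubule clusters, with the interval above 1 in 10. In cluster 10 this rested on 3 of its 11 CA3 cells: without the 3 cells of most Pck1 in each library its ratio of 1.59 became 0.51, from 19 CA3 and 112 vehicle UMIs. The smallest ratio was 1.05 in cluster 14 and the largest 2.06 in cluster 3. After thinning of every cell to 2000 UMIs, 83.0% of CA3 and 74.8% of vehicle proximal tubule cells had a Pck1 UMI, against 14.6% and 15.7% of T/NK-like lymphocytes, in which it should be absent. Without thinning these shares were 95.7% and 93.4%, and 34.4% and 29.4%, at median depths of 7854 and 7194 UMIs in proximal tubule and 6083 and 5235 UMIs in T/NK-like cells.

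G6pc stood at 804 CPM in CA3 and 614 CPM in vehicle proximal tubule cells, a ratio of 1.31 (1.27 to 1.35). The ratio was 1.19 in early, 1.41 in middle and 1.28 in late cells. G6pc was higher in the CA3 library in 10 of 11 clusters, with the interval above 1 in 7. The exception was cluster 10, at 131 CPM for CA3 and 272 CPM for vehicle, where the CA3 library had 11 cells. Taken over all cells of each segment, Pck1 and G6pc thus shared both their direction and their segment of widest difference.

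The other genes of the route differed little. Pcx had 213 CPM in CA3 and 185 CPM in vehicle cells, a ratio of 1.15 (1.08 to 1.23), and it was higher in the CA3 library in 9 of 11 clusters. Fbp1 had 1646 and 1602 CPM, Mdh1 1568 and 1530 CPM, and Got1 98.9 and 92.2 CPM, with ratios between 1.03 and 1.07. Slc37a4, the carrier that feeds the G6pc enzyme, had 181 CPM in either library and a ratio of 0.998 (0.93 to 1.07). In cluster 12 every one of the members was higher in the CA3 library. Pck1 was at 1.68, G6pc at 1.56, Slc37a4 at 1.44, Pcx at 1.41, Fbp1 at 1.36, Got1 at 1.27 and Mdh1 at 1.24. The intervals of Slc37a4, Pcx and Got1 spanned 1 there. Fbp1 was lower in the CA3 library in clusters 7 and 10, at 0.88 (0.82 to 0.94) and 0.80 (0.65 to 0.98).

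**Figure D3:**
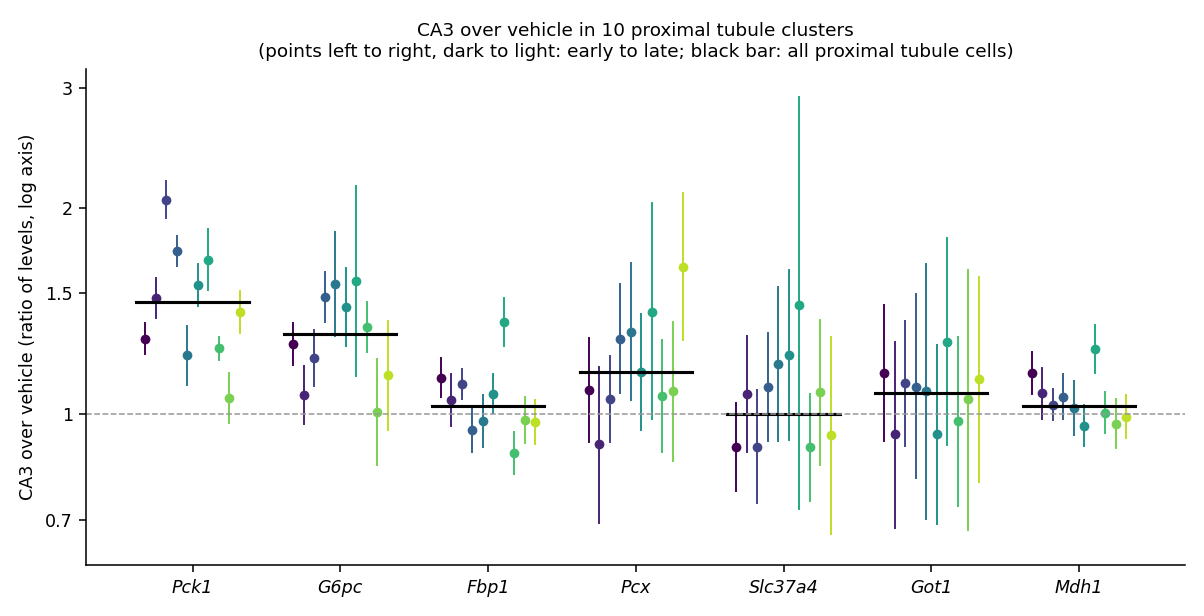
CA3 over vehicle ratio of each gene (log axis) in the 10 proximal tubule clusters of at least 50 cells, from early (left, dark) to late (right, light), with exact 95% counting intervals; black bars give all proximal tubule cells and the dashed line marks equal levels. Pck1 lies above 1 throughout and G6pc at or above 1, Pcx above 1 in 9 of 10 clusters, while the other 4 genes scatter around it.

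Other genes of glucose metabolism were counted in the same cells. Of 12 partner enzymes of the route, all measured, 1 was at least 25% higher in the CA3 library and none 20% lower. The shares over all genes measured are the 10.3% and 8.69% above, for this and the next lists, and 1 of 12 is near the first of them. The 1 gene was Eno1, encoding an enolase, at 412 CPM for CA3 and 286 CPM for vehicle. Next by size came Gpi1, encoding the glucose phosphate isomerase, at 274 and 235 CPM, and Fbp2, at 62.3 and 67.8 CPM. Pck2, the mitochondrial carboxykinase, was low, at 8.36 and 7.82 CPM.

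Of 16 genes for substrate entry and glucose exit, none was 25% higher or 20% lower in the CA3 library. The widest were Pdk4, encoding the kinase that shuts pyruvate dehydrogenase, at 87.0 CPM for CA3 and 71.3 CPM for vehicle, Slc5a12 at 479 and 581 CPM, and the dicarboxylate carrier Slc13a3 at 393 and 331 CPM. Along the tubule this list varied far more. Past 2 times in both libraries 5 were higher in late cells, against 3.96% of genes measured, and 4 were lower, against 8.36%, of which Slc5a2 and Slc5a12 had defined the segments. Slc5a8, the other sodium-lactate carrier, had 225 CPM in late and 11.4 CPM in early CA3 cells, and 233 and 18.2 CPM in the same vehicle cells. Pdk4 had 211 CPM in late and 35.0 CPM in early CA3 cells, and 169 and 32.1 CPM in vehicle cells. The glucose carrier Slc5a1, and the dicarboxylate carriers Slc13a2 and Slc13a3, were the other 3 of higher late level.

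Slc2a2, encoding the basolateral glucose exit carrier GLUT2, was among those of lower late level. It had 165 CPM in late and 425 CPM in early CA3 cells, and 162 CPM in late and 410 CPM in early vehicle cells. The monocarboxylate carrier Slc16a1 had 28.1 CPM in late and 91.5 CPM in early CA3 cells, and 27.8 and 79.6 CPM in vehicle cells. The RNA levels of Slc2a2 and G6pc were thus both lower late, by each gene's own ratio, and glucose exit itself was not measured.

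Of 7 genes of glutamine use and ammonia production, 1 was at least 25% higher in the CA3 library and none 20% lower. It was Slc38a3, the glutamine carrier, with few UMIs: 8.90 CPM for CA3 and 5.93 CPM for vehicle, with an interval of 1.07 to 2.12 for the ratio. Slc25a10 and Glud1, a mitochondrial dicarboxylate carrier and glutamate dehydrogenase, had ratios of 1.19 and 1.17. Slc38a3 was past 2 times higher in late cells, at 17.7 CPM late and 1.22 CPM early for CA3 and 13.6 and 0.73 CPM for vehicle. Slc7a8, an amino acid exchanger, was as far lower, at 125 and 606 CPM for CA3 and 135 and 652 CPM for vehicle.

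Of 9 genes of glycolysis 8 were measured, and 2 were at least 25% higher in the CA3 library and 1 at least 20% lower, all 3 at 32.0 CPM or less. The widest of at least 50 UMIs were Pfkl, a phosphofructokinase gene, at 32.0 CPM for CA3 and 24.9 CPM for vehicle, Pklr at 21.7 and 18.2 CPM, and Aldoa at 596 and 528 CPM. Of 19 regulators of Pck1 and G6pc 18 were measured, and 2 were at least 25% higher and 1 at least 20% lower, again near the shares of 10.3% and 8.69%. Crtc2, the coactivator of cAMP responsive transcription, had 14.7 CPM for CA3 and 10.4 CPM for vehicle, a ratio of 1.40 (1.08 to 1.82). Sik1, the kinase that opposes it, had 26.7 and 20.8 CPM, a ratio of 1.28 (1.07 to 1.55), and Cebpa 19.1 and 15.5 CPM. Median log2 ratios were 0.03 for partners, 0.04 for substrate entry and glucose exit, 0.15 for glutamine, 0.16 for glycolysis and 0.08 for regulators.

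Cells with a Fosb UMI made up 260 of the 1165 CA3 and 337 of the 1437 vehicle proximal tubule cells. Fosb encodes a subunit of the AP-1 factor and is switched on early after a stimulus, including tissue dissociation. In these cells Pck1 and G6pc were higher than in Fosb-negative cells, and Fbp1, Pcx and Mdh1 lower, in both libraries. In both libraries 2 of the 7 genes were at least 25% higher, against 22.5% of the 10651 genes measured, and 3 at least 20% lower, against 15.5%.

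Pck1 had 3140 CPM in Fosb-positive and 2189 CPM in Fosb-negative cells of the CA3 library, and 2199 and 1475 CPM in those of the vehicle library. Its ratio was 1.43 (1.40 to 1.47) for CA3 and 1.49 (1.45 to 1.53) for vehicle. G6pc had 952 and 721 CPM for CA3 and 739 and 543 CPM for vehicle, with ratios of 1.32 and 1.36. Over all proximal tubule cells, the CA3 excess of Pck1 and G6pc was present among Fosb-positive and among Fosb-negative cells alike. Within each segment this held for Pck1 but not throughout for G6pc. The G6pc ratio of CA3 over vehicle was 1.03 (0.95 to 1.12) in early Fosb-positive and 1.06 (0.95 to 1.19) in late Fosb-negative cells. It was 1.80 in middle and 1.39 in late Fosb-positive cells, and 1.39 in early and 1.31 in middle Fosb-negative cells.

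Fbp1 had 1200 CPM in Fosb-positive and 1897 CPM in Fosb-negative CA3 cells, and 1199 and 1830 CPM in vehicle cells. Mdh1 had 1217 and 1766 CPM for CA3, and 1140 and 1751 CPM for vehicle. Their ratios lay between 0.63 and 0.69. Pcx had ratios of 0.73 and 0.76, Got1 of 0.78 and 0.85, and Slc37a4 of 1.15 and 1.18.

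Fosb-positive cells were deeper, with a median of 13800 UMIs against 6495 UMIs in Fosb-negative CA3 cells and 11770 against 6224 UMIs in vehicle cells. Their median mitochondrial share was lower, at 12.4% against 22.3% for CA3 and 12.8% against 20.2% for vehicle. They made up 98.1% and 98.4% of cluster 7 and 96.0% and 95.3% of cluster 11, CA3 before vehicle. The segments gave different answers. Within late cells Pck1 was 1.81 times higher in Fosb-positive cells for CA3 and 1.73 times for vehicle, and G6pc 2.65 and 2.03 times. Fbp1 there was at 0.46 and 0.54, and Mdh1 at 0.53 and 0.54.

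Within early cells, where Fosb-negative cells were deep as well, these differences were smaller or turned round. Early Fosb-positive cells had a median of 15730 UMIs for CA3 and 11683 for vehicle, and early Fosb-negative cells 11098 and 9400. Pck1 was 1.22 times higher for CA3 and 1.06 times for vehicle. G6pc was at 0.81 for CA3 and 1.09 for vehicle, Fbp1 at 1.14 and 1.11, and Mdh1 at 1.18 and 1.17. Pck1 alone of the 7 genes was above 1 in Fosb-positive cells in early, middle and late cells of both libraries with every interval above 1 but that of early vehicle cells, whose lower bound was 0.999. The part of depth in these differences was not tested further.

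**Figure D4:**
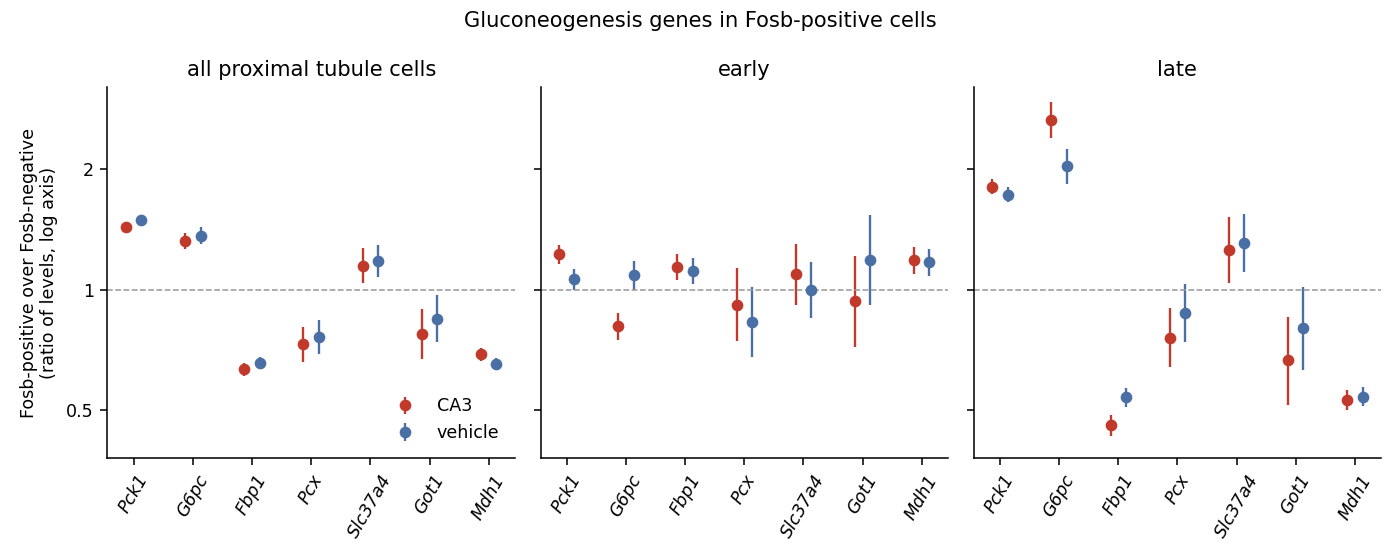
Fosb-positive over Fosb-negative ratio of each gene (log axis) in all proximal tubule cells, in early cells and in late cells, CA3 in red to the left and vehicle in blue, with exact 95% counting intervals. Fbp1 and Mdh1 lie below 1 in late and slightly above 1 in early cells.

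Beyond the proximal tubule the route split. In the 3 distal classes described here Pck1, G6pc and Fbp1 stood at 0.87% to 18.8% of their proximal tubule level. Mdh1 stood at 72.3% to 99.2% of its own, and Got1 exceeded its own. The thick ascending limb-like class had 49 CA3 and 97 vehicle cells, the distal class, which joins distal convoluted tubule-like and principal-like clusters, 66 and 79, and the intercalated-like class 18 and 15. Their own markers were present: the 6 of the thick ascending limb summed to 27946 CPM for CA3 and 26356 CPM for vehicle, and the 6 of intercalated cells to 9101 and 7911 CPM.

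Got1 had 155 CPM in CA3 and 170 CPM in vehicle thick ascending limb-like cells, 116 and 170 CPM in distal cells, and 255 and 223 CPM in intercalated-like cells. These are 157% and 185%, 117% and 185%, and 258% and 242% of the proximal tubule level in the same library. Got1 was thus above its proximal tubule level in each of the 3 classes and in both libraries. The narrowest excess, in distal cells of the CA3 library, rested on 98 UMIs and was 1.07 times under the lowest of 10 alternatives. In T/NK-like cells it stood at 56.7% and 77.9%.

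Mdh1 had 1149 and 1177 CPM in thick ascending limb-like, 1135 and 1145 CPM in distal, and 1365 and 1518 CPM in intercalated-like cells, CA3 before vehicle. That is between 72.3% and 99.2% of its proximal tubule level, against 18.8% and 23.7% in T/NK-like cells. Set against early proximal tubule cells alone, at 1088 and 1000 CPM, all 3 distal classes were higher in both libraries.

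Pck1, G6pc and Fbp1 lay together at the bottom. In thick ascending limb-like cells they stood at 2.64%, 5.61% and 9.42% of the proximal tubule level for CA3 and at 7.52%, 9.80% and 11.9% for vehicle. The 12 proximal tubule markers, which these cells should lack, had a median of 7.82% for CA3 and 10.53% for vehicle there. T/NK-like cells, which should also lack them, had Pck1 at 10.2% and 6.20%, G6pc at 5.74% and 7.02%, and Fbp1 at 10.9% and 10.8%. In distal cells they stood at 15.97%, 7.67% and 15.3% for CA3 and at 5.89%, 6.00% and 10.8% for vehicle. In intercalated-like cells they stood at 0.87%, 1.82% and 1.99% for CA3 and at 18.8%, 6.29% and 8.30% for vehicle. Pck1 was above all 12 markers in 2 places, distal cells of the CA3 library and intercalated-like cells of the vehicle library, where few cells held most of its UMIs. Elsewhere the 3 genes lay within the range of markers that the class should lack. That range was wide, from 0.47% to 22.3% in thick ascending limb-like CA3 cells, and whether such levels are background was not tested.

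**Figure D5:**
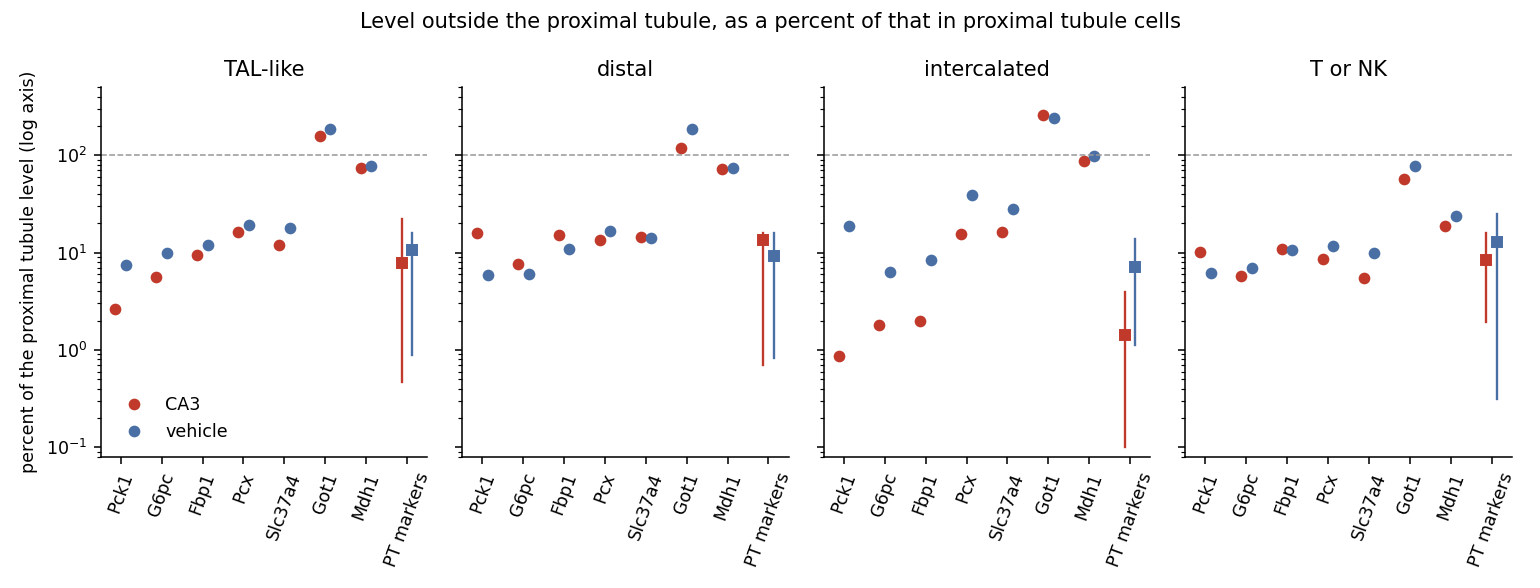
Level of each gene in 4 classes as a percent of its proximal tubule level in the same library (log axis), CA3 in red to the left and vehicle in blue. Squares give the median and lines the range of 12 proximal tubule markers, with a lowest value of 0 drawn at 0.1; Got1 lies above 100% in the 3 distal classes and Pck1, G6pc and Fbp1 lie among the markers in most.

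Pcx and Slc37a4 were less uniform. Pcx stood at 16.1% and 19.1% in thick ascending limb-like, 13.4% and 16.8% in distal, and 15.4% and 39.4% in intercalated-like cells. Slc37a4 stood at 11.97% and 18.0%, 14.4% and 14.0%, and 16.2% and 28.4%. In T/NK-like cells Pcx was at 8.52% and 11.7% and Slc37a4 at 5.47% and 9.91%, from 11 or fewer UMIs in each library. Both genes lay above all 12 proximal tubule markers in intercalated-like cells of both libraries and in thick ascending limb-like cells of the vehicle library, as did Pcx in distal cells of the vehicle library. Intercalated-like cells had only 9 and 17 Pcx UMIs and 8 and 12 Slc37a4 UMIs, CA3 before vehicle. Without the 3 cells with most UMIs of the gene, 3 and 5 Pcx UMIs and 2 and 2 Slc37a4 UMIs were left. In the CA3 library both genes lay within the range of the markers in thick ascending limb-like and distal cells, and in distal cells below Pck1 and Fbp1. Across both libraries, 6 of the 7 genes were at least 20% lower in thick ascending limb-like than in proximal tubule cells, against 20% of genes measured, and Got1 was higher, against 33.9%. In distal cells 6 were lower, against 22.8%, and none higher, against 30.5%. In intercalated-like cells 5 were lower, against 22.6%, and Got1 was higher, against 31.8%.

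CA3 over vehicle in these classes rests on few cells and UMIs. In distal cells Pck1 had 404 CPM for CA3 and 102 CPM for vehicle, a ratio of 3.95 (3.21 to 4.89) from 341 and 125 UMIs. The 3 cells with most Pck1 held 58.1% of those UMIs for CA3 and 50.4% for vehicle, and without them the ratio was 3.47. G6pc and Fbp1 were at 1.67 and 1.46 there, but at 1.29 and 1.23 without their own top 3 cells, and G6pc was at 0.99 as a mean over cells. The 12 proximal tubule markers summed to 3742 CPM for CA3 and 2636 CPM for vehicle. In distal cells 3 of the 7 genes were at least 25% higher, against 18.4% of genes measured, which falls to 2 without the top cells, and Got1 was over 20% lower, at 0.68 (0.53 to 0.87), against 23.3%.

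In thick ascending limb-like cells Pck1 had 66.7 CPM for CA3 and 131 CPM for vehicle, a ratio of 0.51 (0.35 to 0.74) from 37 and 152 UMIs. The proximal tubule markers summed to 2422 CPM for CA3 and 3120 CPM for vehicle there. Pck1, G6pc and Slc37a4 were at least 20% lower, which 24.7% of genes measured were as well. In intercalated-like cells Pck1 had 21.9 CPM for CA3 and 326 CPM for vehicle, from 6 and 76 UMIs, while the markers summed to 496 and 2041 CPM. Pck1 was thus higher in the library with more proximal tubule marker RNA in each of the 3 classes. In T/NK-like cells it was not: Pck1 had 259 CPM for CA3 and 108 CPM for vehicle, while the markers summed to 2460 and 3435 CPM. Pck1 and the markers moved together in endothelial-like and in mononuclear phagocyte-like cells. The part of that RNA in these differences was not tested. For Mdh1 the interval spanned 1 in all 3 classes, at ratios of 0.98, 0.99 and 0.90.

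Over the 16 clusters of at least 50 cells, the genes most like each in log level were taken from 7023 genes. Nearest to Pck1 was Hlf, at a Pearson r of 0.99, then Grtp1 and Xylb. G6pc was most like Kcnj15, Abcc2 and Gcnt1, at 0.98 each, and Gsta2 and Cela1 were close to Fbp1, at 0.996 each. Pcx was nearest to Abhd14a, Spink1 and Cat, and Mgat3 and Elovl2 were close to Slc37a4. Mdh1 was nearest to D10Jhu81e, Cisd1 and Hspa9, at 0.99. Got1 had no gene as close: Atp6v1d came first at 0.88, then Cs, encoding citrate synthase, and Mff, both at 0.87. Got1 was also unlike the other members, with r of 0.13 with Pck1, 0.06 with G6pc and 0.62 with Mdh1. All clusters share 2 libraries, and the contrast of tubule with other cells sets much of each r.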

How the data were processed

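Cells from 1 CA3 and 1 vehicle library were compared. The deposited values are UMI counts, not normalized, from Cell Ranger 3.0.1 on mm10 per the submitters' processing notes, from 10x 3′ libraries run on a NextSeq 500 per the labels' protocols. The sources used here do not give cell calling, strand or read filters.

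A barcode was kept from 500 genes upward and up to 50% mitochondrial UMIs, which removed 230 of 1724 CA3 and 200 of 1967 vehicle barcodes. No doublet caller was run, so doublets may remain. Both libraries were clustered together with scanpy 1.11.5 (2000 variable genes, 30 principal components, 15 neighbours, Leiden resolution 1) without the members and pathway genes. Classes were named from marker lists. Clusters with at least 10000 CPM of the 12 proximal tubule markers were called proximal tubule, a threshold set after the levels were seen, as were the limits for early and late. Counts were summed per class and library into CPM, with exact Poisson intervals for levels, exact conditional binomial intervals for ratios and Clopper-Pearson intervals for shares, at 95%. No p-value was computed, as cells of 1 library are not replicates. A gene was measured from 20 UMIs over both libraries. Sizes are given as past 25% higher or 20% lower, which is the same fold, or past 2 times.

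The members and lists were chosen with earlier results of these data known. Named were the 7 members in every class; of each pathway list the 3 genes with the largest absolute log2 ratio of CA3 over vehicle among those with at least 50 proximal tubule UMIs and those past 2 times between late and early in both libraries; and the 3 genes most like each member over clusters of at least 50 cells, of which 1 each for Fbp1 and Slc37a4 is not reported here. Pck2, cluster marker genes and Fosb were named as background.

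The interval step was run on simulated Poisson counts for the 11762 genes of the proximal tubule comparison: of 11562 genes left unchanged, 95.7% had an interval that held the true ratio. Exact intervals cover such counts by construction, so this checks the calculation only. It does not show how the intervals cover counts that vary between cells or animals. Of all words of 31 bases in the last 400 bases of member transcripts (GENCODE vM21), other genes shared 1.30% for Pck1 and none for the other 6. Slc37a4 and Mdh1 overlap short RNA genes on the same strand, and Pcx and Mdh1 genes on the other strand. Promoters came from RefSeq (GRCm38.p6), where all 7 members matched. Alternatives covered the cell filter, library total, cell weighting, thinning, clustering, segment and Fosb gates, Fosb-positive cells left out, and single cells. Free RNA was not removed.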

Additional observations from a re-analysis of the deposited data

Results flagged for a closer look

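Pck1 was higher in the CA3 library in each proximal tubule segment and in distal cells, but lower in thick ascending limb-like cells. The CA3 over vehicle ratio was 1.34 in early, 1.74 in middle and 1.33 in late proximal tubule cells and 3.95 in distal cells, against 0.51 in thick ascending limb-like cells. All 5 intervals excluded 1, and each ratio stayed on its side of 1 without the 3 cells with most Pck1. Only tubule classes of at least 30 cells in each library were compared, a limit set after the values were seen. Outside the tubule, Pck1 had a ratio of 2.40 (1.62 to 3.68) in T/NK-like cells, which should lack it. It was 3.38 (2.35 to 4.91) in endothelial-like and 0.80 (0.45 to 1.43) in mononuclear phagocyte-like cells. Without the 3 cells with most Pck1 these ratios became 1.17, 0.80 and 0.83. The 12 proximal tubule markers, which distal and thick ascending limb-like cells should lack, moved the same way, at 3742 CPM for CA3 and 2636 CPM for vehicle in distal cells and 2422 and 3120 CPM in thick ascending limb-like cells, and their part was not tested. In T/NK-like cells those markers went the other way from Pck1, at 2460 CPM for CA3 and 3435 CPM for vehicle. The Pck1 level of thick ascending limb-like cells, 2.64% for CA3 and 7.52% for vehicle of the proximal tubule level, lay within the range of those markers there. Whether it is background was not tested. The difference between classes was not tested, as each group has 1 library.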

How the results depend on the processing

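No paired analysis was possible because each group has 1 library and the labels carry no replicate numbers. The count of 2 of 7 genes at least 25% higher with CA3 in proximal tubule cells was the same under all 13 alternatives. The count of genes past 1.5 times there, 416 higher and 472 lower, was 107 and 102 from 100 UMIs and 1302 and 1388 from 1 UMI in each library. Of 3 genes higher late, 1 remained by count with cells gated on their own carrier UMIs and 1 among clusters of at least 10000 median UMIs, an alternative chosen after seeing the data. The count of genes lower late, 2 in all, was 1 at Leiden resolution 0.5, 1 under that gate and 1 among those deep clusters, where the gene was Got1 and neither of the 2. Late over early turned round for Pck1 without a cell filter (0.91 for CA3, 0.99 for vehicle) and at resolution 0.5 (0.93 for CA3), and for Fbp1 in deep clusters (0.88 for CA3).

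The count of genes higher in Fosb-positive cells, 2 in all, was 0 within early and 1 within middle cells, the middle cells being an alternative chosen after seeing the data, and of 3 lower it was 0 within early cells. There G6pc (0.81 for CA3), Fbp1 (1.14 and 1.11) and Mdh1 (1.18 and 1.17) turned round. In distal cells, no gene was higher than in proximal tubule cells by 25% in both libraries, but 1 was without a cell filter, at resolution 0.5, as a mean over cells, after thinning and after subtraction of the T or NK-like level. CA3 over vehicle of G6pc turned round in thick ascending limb-like cells after thinning (1.10) and in distal cells as a mean over cells (0.99). Mdh1 in thick ascending limb-like over proximal tubule cells was 1.02 for vehicle without a cell filter. The cause of each change was not tested. At resolution 0.5 no thick ascending limb-like class and under the stricter filter no intercalated-like class was found, so these gave no values.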
